A study of Mus musculus with 6 samples.

Results

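Chromatin remodelling and histone modifying genes were described in retinas of wild-type and rd10 mice. The genes were taken by symbol from the deposited count table: all that begin with Kdm, Setd, Smarc, Hdac, Ehmt or Ezh, or with Chd or Brd followed by a digit, leaving out Kdm5c, Kdm5d and Kdm6a. This gave 73 of the 24062 genes in the table, and all 73 passed the filter on low counts. They comprised 15 Kdm genes, 15 Setd, Ehmt and Ezh genes, 11 Hdac, 14 Smarc, 11 Chd and 7 Brd genes. RNA-seq was done on whole retinas collected at postnatal day 30 from C57Bl6/J wild-type mice (WT) and from rd10 mice, whose strain is labelled C57Bl6/J too. Each group had 3 libraries, each made from 2 frozen retinas, and no treatment is named for either group. The rd10 allele is a missense change in Pde6b, a subunit gene of the rod phosphodiesterase, which leads to rod death in the first weeks of life. The allele is carried by every cell, and which animals the libraries came from is not labelled, so p-values describe only how much these libraries vary, which may be technical.

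DNA is wrapped around histones, and the tails of the histones carry methyl and acetyl groups that are written, removed and read by separate protein families. SET domain proteins such as those of the Setd, Ehmt and Ezh genes add methyl groups to lysines, and the Kdm proteins take them off. Histone deacetylases (Hdac) remove acetyl groups, bromodomain proteins (Brd) bind them, and the Smarc and Chd ATPases and their partners move or evict nucleosomes. Rod photoreceptors, the most abundant cells of the mouse retina, pack their DNA in an inverted arrangement with heterochromatin at the centre of the nucleus.

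Library totals lay between 13573035 and 15818918 counts in WT and between 10923556 and 12171088 in rd10. All 14 rod marker genes fell in rd10, and their summed level went from 104920 to 121050 CPM (counts scaled to a common, TMM-adjusted library size) in the WT libraries to 21178 to 31101 in the rd10 libraries. All 12 microglial markers rose (142 to 150 CPM in sum in WT, 423 to 534 in rd10), as did 7 of 11 Müller glia markers (8611 to 9664, and 13177 to 16101). In bulk retina, fewer cells of a type and less RNA per cell cannot be told apart, and the part that these shifts have in any difference below was not tested. Lens markers summed to at most 18.1 CPM in any library. Blood markers summed to 1.97 to 4.98 CPM in the WT libraries and 2.21 to 2.96 in the rd10 libraries, and 1 of them, the globin gene Hbb-bt, was at 0 in all 6 libraries. Y-linked genes were expressed in 1 WT and 2 rd10 libraries, so the sexes were not balanced between groups.

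In rd10 retinas, 9 of the 73 chromatin genes fell and 1 rose at an adjusted p under 0.05 (edgeR quasi-likelihood test, Benjamini-Hochberg adjustment over all 13905 tested genes). Those that fell were the demethylase genes Kdm4c, Kdm5b, Kdm3b and Kdm8, the remodeller genes Chd1l and Chd7, the deacetylase gene Hdac9 and the bromodomain genes Brd3 and Brd1. The gene that rose was Chd3, an ATPase of the NuRD complex. Among all tested genes, 14.4% were called, 7.12% higher and 7.32% lower. The 10 called members, 1 higher and 9 lower, therefore make up a share of the list close to that of all genes, while their directions were less even. The median log2 fold change of the 73 genes was -0.107, with 26 positive and 47 negative values, against a median of -0.037 over all tested genes. The libraries of the groups did not overlap for 5 members that were higher and 21 that were lower in rd10, beside 17.1% and 18.6% of all tested genes. At an unadjusted p under 0.05, 4 members were higher and 18 lower, and the shares of all tested genes were 14.1% and 16.0%. DESeq2 called 2 members higher and 11 lower, and 8.94% and 8.59% of all tested genes. The counts by family given later are to be read against these shares.

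These directions depended on the scaling. With library size alone, 6 members were called higher and 4 lower, beside 17.8% and 4.11% of all tested genes, and the median was 0.134 for the members and 0.203 for all genes. With scaling factors from bipolar, amacrine and ganglion cell markers (inner neuron scaling), none was called higher and 25 were called lower, beside 4.65% and 26.3% of all tested genes, with medians of -0.376 and -0.315. With TMM factors these markers themselves summed higher in rd10, so setting them level moves all fold changes down. The sums in WT and rd10 were 1860 to 2095 and 2314 to 2390 CPM (bipolar), 1735 to 2013 and 2140 to 2376 (amacrine), and 1329 to 1588 and 1654 to 1690 (ganglion). Each of the 9 genes called lower kept a negative log2 fold change, and Chd3 a positive one, under all 19 alternatives tried. Kdm3b, Kdm4c and Kdm5b were called lower in every one of these, including each fit that left out 1 library.

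**Figure D1:**
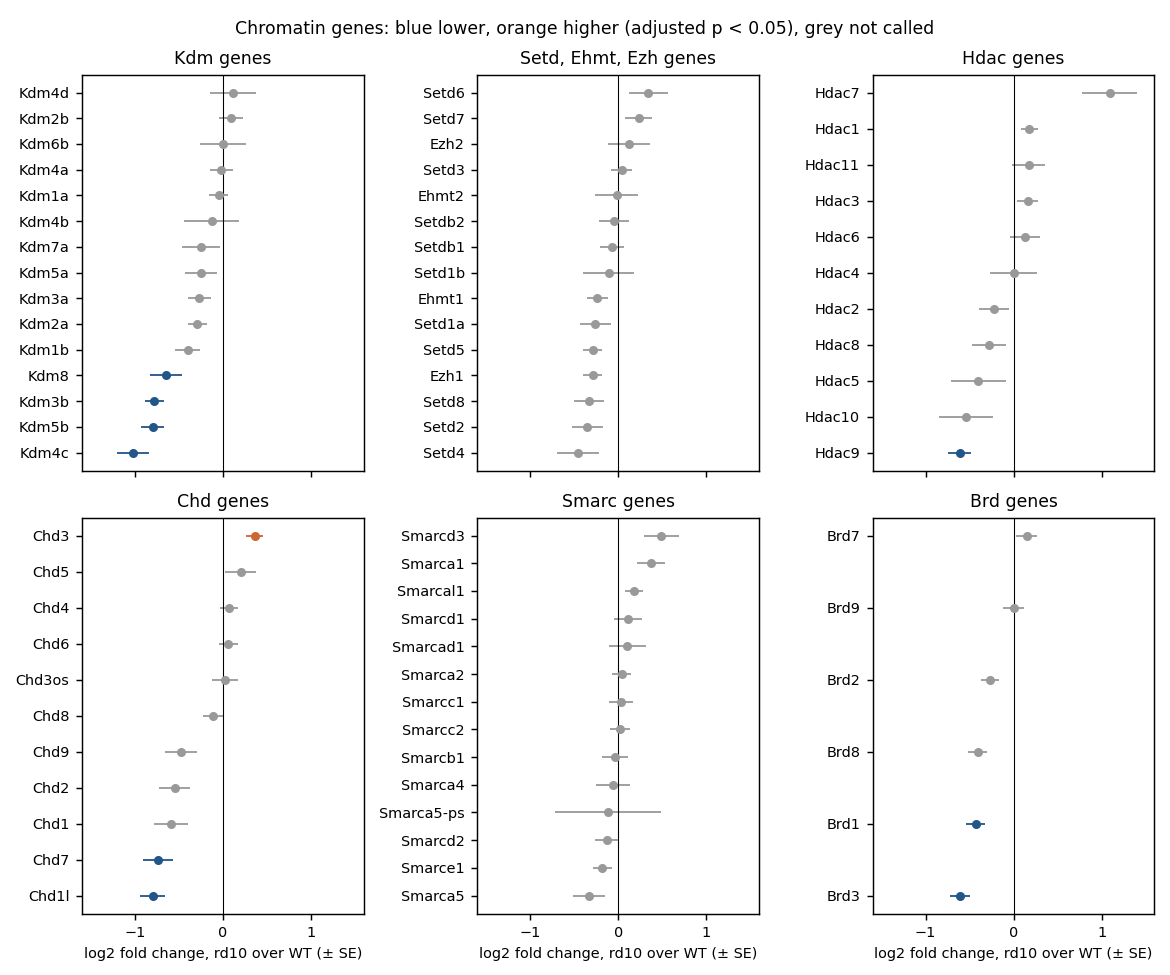
Log2 fold change of rd10 over WT (x axis, points, with the standard error as bars) for the chromatin genes reported here, in a panel per family, with called genes in blue (lower) or orange (higher). Kdm genes lie mostly left of 0 (13 of 15), as do the Brd genes drawn, Smarc genes are divided between the sides (8 of 14 right of 0), and Hdac7 stands farthest to the right without passing the threshold.

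Levels between genes were compared per kilobase of exon. In WT the highest members were Smarcc2 (50.5 ± 2.88 CPM per kilobase, SD, n = 3), a core subunit of the SWI/SNF complex, Chd4 (48.9 ± 1.91), the main ATPase of NuRD, and Smarca4 (48.6 ± 11.9), a SWI/SNF ATPase. These 3 did not differ beyond their spread. Next came Hdac11 (42.7 ± 11.4), a deacetylase gene of class IV, and Kdm4c (34.1 ± 7.73), the highest of the demethylase genes, whose ranges overlapped. At the low end were the processed pseudogene Smarca5-ps (0.216 ± 0.143), Setd4 (0.494 ± 0.0601), the Polycomb methyltransferase gene Ezh2 (0.601 ± 0.0871), Kdm4d (0.63 ± 0.156) and Hdac7 (0.83 ± 0.31). Ezh1, whose protein can take the place of EZH2 in the PRC2 complex and which is the commoner form in cells that no longer divide, stood at 14.3 ± 1.43. In rd10 the highest were Chd4 (51.3 ± 1.65), Smarcc2 (51.1 ± 3.49), Hdac11 (48.1 ± 5.91) and Smarca4 (46.5 ± 6.66), and Kdm4c was at 16.8 ± 1.84. All these values are CPM per kilobase, with lengths taken from an annotation that need not be the one used for counting.

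Of the 15 demethylase genes, 4 fell, none rose and 11 were not called, with 6 lower and none higher at an unadjusted p under 0.05 and the same 4 called by DESeq2. Their median log2 fold change was -0.251 with TMM factors. It was -0.534 with inner neuron scaling, and -0.015 with library size alone. The share of all counts that the 15 genes took together was 0.136 ± 0.011% in WT and 0.116 ± 0.0036% in rd10, and the groups did not overlap (two-sided exact permutation p = 0.1, the floor for 3 against 3 libraries, and 0.28 adjusted over 25 such sums). This share uses no TMM factor and amounts to scaling by library size alone. Under that scaling only 3 of the 15, Kdm3b, Kdm4c and Kdm5b, were called, all lower. The sum therefore does not show a fall of the other demethylase genes.

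Kdm4c encodes a demethylase of H3K9 and H3K36, lysines of histone H3 that carry methyl groups in heterochromatin and in transcribed genes. The gene had 158, 191 and 247 CPM in WT-1, WT-4 and WT-23 (libraries are named as in the count table) and 95.9, 88.1 and 109 CPM in Rd10-3, Rd10-4 and Rd10-5. All rd10 libraries lay below all WT libraries, and the WT libraries were the more spread. The log2 fold change was -1.02 ± 0.18 (SE; edgeR adjusted p = 0.0074). Over the alternatives it ran from -1.31 to -0.79, with an adjusted p from 1.31e-05 to 0.0462. Of its relatives in the same JmjC family, Kdm4a had a log2 fold change of -0.02 ± 0.13, Kdm4b of -0.13 ± 0.31 and Kdm4d of 0.11 ± 0.26, and none of these passed the test.

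The authors place Kdm4c on the forward strand at chr4:74242497-74405860 (mm10). RefSeq (GRCm38.p6, the same assembly as mm10) has a pair of start sites for it. The 250 bases before each are shown because they differ in base composition and in matches to TAATCC, the core sequence bound by the photoreceptor factors CRX and OTX2. The first window, chr4:74242247-74242496 on the forward strand, ends at the start the authors' table gives, has a GC content of 39.6% and no CpG. It holds 2 matches, both as the reverse complement GGATTA (capitals), beginning 142 and 133 bases before the start. The second window, chr4:74251629-74251878 on the same strand, has a GC content of 60.4%, 19 CpG and no match.
Kdm4c, start in the authors' table: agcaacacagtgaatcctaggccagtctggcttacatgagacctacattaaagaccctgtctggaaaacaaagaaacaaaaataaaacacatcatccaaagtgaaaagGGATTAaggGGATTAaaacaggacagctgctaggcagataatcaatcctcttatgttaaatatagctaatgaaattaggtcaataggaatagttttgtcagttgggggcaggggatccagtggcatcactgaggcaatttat
Kdm4c, second RefSeq start: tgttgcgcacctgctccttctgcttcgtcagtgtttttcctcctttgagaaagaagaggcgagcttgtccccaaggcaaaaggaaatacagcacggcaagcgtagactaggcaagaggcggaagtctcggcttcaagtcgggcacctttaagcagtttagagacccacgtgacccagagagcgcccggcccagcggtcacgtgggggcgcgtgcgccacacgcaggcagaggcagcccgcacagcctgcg
The counts are per gene and do not separate the starts, so they do not show from which of them the RNA came. A match is a run of letters and not a measured site.

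Kdm3b, whose protein removes methyl groups from H3K9, fell with the smallest adjusted p of the 73 genes. It had 189, 199 and 206 CPM in WT and 105, 120 and 120 in rd10. The libraries of each group lay close together and far from the other group. Its log2 fold change was -0.78 ± 0.11 (SE; edgeR adjusted p = 0.00305), and -1.06 to -0.54 over the alternatives (adjusted p from 1.98e-07 to 0.0282). An exon of the predicted gene Gm26538 overlaps it on the opposite strand, and whether counting used strand is not stated in the labels. Kdm3a, its close relative, had 60.2 ± 8.25 CPM in WT and 50 ± 0.711 in rd10 (SD, n = 3), a log2 fold change of -0.27 ± 0.13 that did not pass (adjusted p = 0.208).

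Kdm5b, which encodes a demethylase of H3K4, a lysine methylated at active promoters, had 287, 341 and 358 CPM in WT and 186, 176 and 206 in rd10. The highest rd10 library stayed well below the lowest WT library. The log2 fold change was -0.80 ± 0.13 (SE; edgeR adjusted p = 0.00501) and ran from -1.08 to -0.56 over the alternatives (adjusted p from 7.16e-06 to 0.0429). Kdm5a, the other autosomal member of that family, had 82.3, 99.5 and 131 CPM in WT and 93, 79.5 and 90.2 in rd10, and its groups overlapped (-0.25 ± 0.18, adjusted p = 0.377). The remaining H3K4 demethylase genes were those of the flavin-dependent enzymes. Kdm1a (LSD1), part of the CoREST complex, had a log2 fold change of -0.05 ± 0.11. Kdm1b had 21.4, 24.8 and 28.5 CPM in WT and 19.2, 18.8 and 18.6 in rd10. Its groups did not overlap, but the difference of -0.40 ± 0.14 missed the threshold (adjusted p = 0.105), and exons of Dek overlap it on the opposite strand.

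Kdm8, a JmjC gene of low level, had 117, 142 and 119 counts in the WT libraries, against 69, 66 and 86 in rd10, or 9.18 ± 0.972 and 5.82 ± 0.647 CPM (SD, n = 3). The groups did not overlap and the log2 fold change was -0.65 ± 0.18 (SE; edgeR adjusted p = 0.0455). This call was fragile. Leaving out Rd10-3, Rd10-4, Rd10-5, WT-1 or WT-4 ended it (adjusted p = 0.188, 0.131, 0.0788, 0.0561 and 0.175), and 7 of 19 alternatives kept it (adjusted p from 0.00864 to 0.188).

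The other 11 demethylase genes were not called, and their log2 fold changes lay between -0.40 and 0.11. Kdm2a, an H3K36 demethylase gene, had 118, 117 and 135 CPM in WT and 99.1, 95.2 and 108 in rd10, without overlap (-0.29 ± 0.11, adjusted p = 0.128). Kdm2b, which recruits a form of the PRC1 complex to CpG islands, had 21.7 ± 2.51 and 23.1 ± 1.38 CPM. The H3K27 demethylase gene Kdm6b had 44.2, 25.6 and 22.9 CPM in WT and 26.3, 37.1 and 29.1 in rd10, with WT-1 and Rd10-4 the highest of their groups (-0.00 ± 0.26). Kdm7a, whose protein acts on H3K9 and H3K27, had 78.1, 93.7 and 131 CPM in WT and 87.1, 66.3 and 101 in rd10, with WT-1 and Rd10-4 the lowest (-0.25 ± 0.22). Neither of these passed the test (adjusted p = 0.998 and 0.491).

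**Figure D2:**
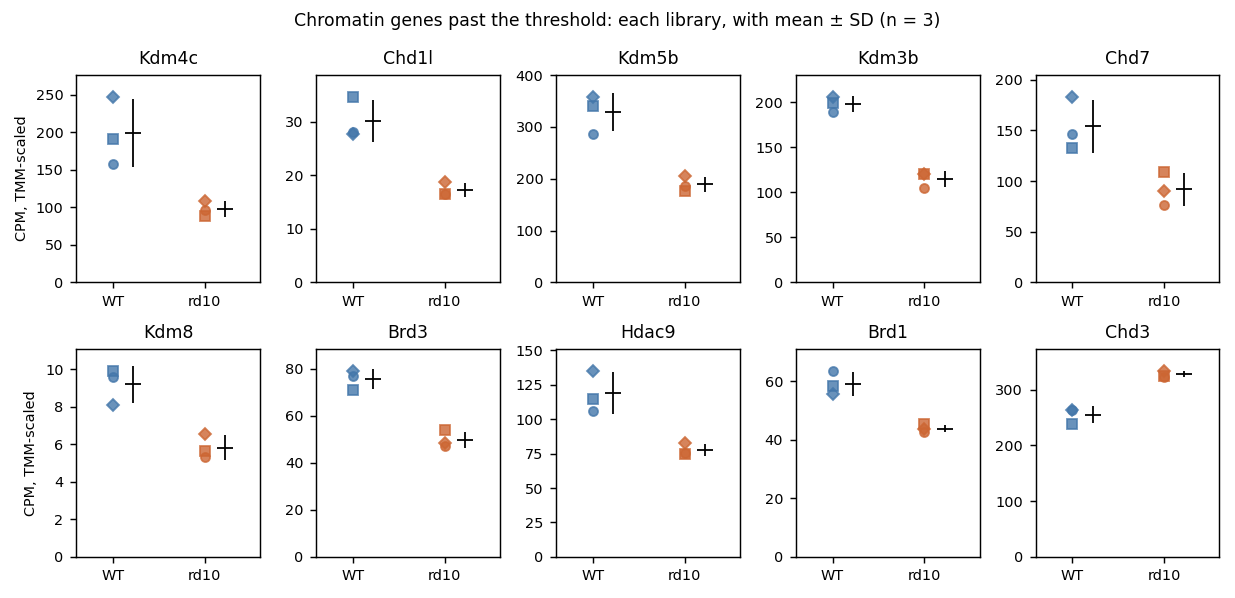
CPM of the 10 called genes in each library (y axis, from 0; circles, squares and diamonds for WT-1, WT-4 and WT-23 in blue and Rd10-3, Rd10-4 and Rd10-5 in orange), with the mean ± SD of 3 libraries beside them. In each panel the groups do not overlap, and Chd3 is the 1 gene that is higher in rd10.

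None of the 15 methyltransferase genes of the Setd, Ehmt and Ezh names was called in either direction by edgeR or by DESeq2, and 2 were lower at an unadjusted p under 0.05. Their log2 fold changes ran from -0.46 to 0.34 with a median of -0.107, or 0.134 with library size alone. With inner neuron scaling 6 were called lower. The groups did not overlap for 5 of them, all lower in rd10. Setd5, a broadly expressed SET domain gene, had 101, 109 and 124 CPM in WT and 91.6, 90.7 and 91.1 in rd10 (log2 difference -0.29 ± 0.11, adjusted p = 0.131). Ezh1 had 97.6, 118 and 103 CPM in WT and 88, 84.3 and 87.4 in rd10 (log2 difference -0.29 ± 0.11, adjusted p = 0.131). In both genes the rd10 libraries lay nearly on top of each other just below the WT range. Ezh2, the PRC2 enzyme of dividing cells, had 42, 66 and 59 counts in the WT libraries, against 59, 63 and 43 in rd10, with full overlap (0.12 ± 0.24, adjusted p = 0.774).

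Among genes of H3K9 methylation, Setdb1, which silences retroelements with KAP1, had 43.8 ± 5.76 CPM in WT and 41.8 ± 3.14 in rd10 (SD, n = 3; log2 fold change -0.07 ± 0.14). Ehmt2, which encodes G9a, had 119, 78.1 and 67.3 CPM in WT and 79.4, 111 and 70.8 in rd10. WT-1 and Rd10-4 were each far above the rest of their group in this gene, and the difference between groups was -0.02 ± 0.24 (adjusted p = 0.966). Setd2, the enzyme that trimethylates H3K36 along transcribed genes, had 90, 112 and 142 CPM in WT and 88.2, 78.2 and 103 in rd10 (log2 difference -0.35 ± 0.18, adjusted p = 0.24). It was called without WT-1 and with inner neuron scaling, 2 of its 19 alternatives (adjusted p from 0.0405 to 0.708). Setd7, an H3K4 monomethyltransferase gene, had 107, 97.7 and 139 CPM in WT and 133, 132 and 139 in rd10 (log2 difference 0.23 ± 0.15, adjusted p = 0.327). Setd3, which encodes an actin methyltransferase, was level, at 165 ± 18.6 and 170 ± 11.8 CPM.

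Of the 11 deacetylase genes, 1 fell, none rose and 10 were not called, with 1 higher and 1 lower at an unadjusted p under 0.05. DESeq2 called 1 higher and 1 lower. The median log2 fold change was -0.002, or -0.271 with inner neuron scaling and 0.240 with library size alone. Hdac9, a class IIa deacetylase gene whose protein binds MEF2 factors, had 106, 115 and 135 CPM in WT and 75.3, 75 and 82.9 in rd10. The rd10 libraries lay close together and below every WT library. The difference between groups was -0.61 ± 0.13 on the log2 scale (SE; edgeR adjusted p = 0.0166). Leaving out Rd10-3, Rd10-4 or WT-4 ended the call (adjusted p = 0.0963, 0.0624 and 0.085), and also against a fold of 1.2 (0.0536) and with library size alone (0.0853). It was kept in 14 of 19 alternatives (adjusted p from 0.00158 to 0.0963).

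The authors' table places Hdac9 on the reverse strand at chr12:34371503-34528889, while the GENCODE gene reaches from 34047580 to 34917095. The authors' start is thus the internal one of a pair of RefSeq starts, and reads from the longer gene model may not all have been counted. The 250 bases before the internal start, chr12:34528890-34529139 on the reverse strand, are shown because they hold the same short sequence as those of Kdm4c. There is 1 match (capitals), beginning 41 bases before the start, 2 CpG and a GC content of 43.6%. The window before the outer start, chr12:34917096-34917345, holds no match.
Hdac9, start in the authors' table: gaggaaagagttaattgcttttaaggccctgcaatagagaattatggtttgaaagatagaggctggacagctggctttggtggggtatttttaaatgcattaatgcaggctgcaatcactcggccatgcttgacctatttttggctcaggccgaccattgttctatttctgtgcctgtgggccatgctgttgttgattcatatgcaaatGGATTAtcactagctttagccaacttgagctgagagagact
Of the 73 genes, 55 had RefSeq promoter entries, with 76 windows between them. TAATCC was found on either strand in 3 of these windows (3.95%), one each of Kdm4c, Hdac9 and Kdm2b, against 6.25% of all 32851 windows of the same length. By gene, 2 of 7 called-lower members with an entry had a match, beside 94 of 762 called-lower genes (12.3%), 57 of 728 called-higher genes (7.83%) and 6.48% of all tested genes with entries.

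Hdac7, a class IIa gene known from vessels and lymphocytes, had the largest positive fold change of the 73 genes and is named after its values were seen. It had 98, 66 and 62 counts in the WT libraries, against 130, 188 and 126 in rd10, or 5.61 ± 2.09 and 11.9 ± 3.61 CPM. The groups did not overlap, and WT-1 and Rd10-4 were the highest library of each. The log2 fold change of 1.09 ± 0.31 missed the threshold narrowly (SE; edgeR adjusted p = 0.0528). It passed in 11 of 19 alternatives (adjusted p from 5.79e-04 to 0.177), among them DESeq2 (0.0062) and the fit without WT-1 (0.0064). Exons of Slc48a1 overlap it on the opposite strand. Astrocyte and vessel markers summed to 156 to 220 CPM in the WT libraries and 472 to 586 in the rd10 libraries, with 2 of 7 tested markers called higher, and their part in this value was not tested. The remaining class IIa genes, Hdac4 and Hdac5, were highest in WT-1 and Rd10-4. Hdac5 had 235, 125 and 106 CPM in WT and 99.9, 154 and 98.1 in rd10 (log2 difference -0.40 ± 0.31, adjusted p = 0.428), and Hdac4 had 25.3, 15.4 and 13.8, and 13.9, 23.3 and 17.1 (-0.00 ± 0.27).

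The class I genes Hdac1, Hdac2, Hdac3 and Hdac8, whose proteins are the catalytic subunits of the SIN3, NuRD, CoREST and NCoR complexes or act alone, were not called. Hdac1 had 53.5, 54.2 and 53.2 CPM in WT and 64.1, 59.6 and 59.1 in rd10, without overlap (0.18 ± 0.10, adjusted p = 0.279). Hdac2 had 77.5, 90.6 and 107 CPM in WT and 82.4, 64.7 and 89.4 in rd10, with overlap (-0.22 ± 0.17, adjusted p = 0.419). Hdac3 had 39.2 ± 2.29 and 43.8 ± 3.5 CPM (0.16 ± 0.12, adjusted p = 0.411). Hdac6, the tubulin deacetylase gene, had 54.4 ± 12.2 and 59.7 ± 3.36 CPM, and Hdac11 had 212, 154 and 127 CPM in WT and 173, 211 and 171 in rd10 (log2 difference 0.17 ± 0.19, adjusted p = 0.598). Hdac8 and Hdac10 had log2 fold changes of -0.28 ± 0.19 and -0.54 ± 0.31 on fewer than 10 CPM.

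Of the 11 genes with Chd names, 2 fell, 1 rose and 8 were not called, with 5 lower and 1 higher at an unadjusted p under 0.05. The median was -0.114, or -0.395 with inner neuron scaling and 0.124 with library size alone. The subfamilies differed in sign. Chd1 and Chd2 of the first, and Chd1l, which was listed beside them by its symbol, had negative values. All 3 genes of the second (Chd3, Chd4 and Chd5) had positive ones, though Chd4 and Chd5 turned negative with inner neuron scaling (-0.21 and -0.08). This difference between subfamilies was not tested.

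Chd1l encodes ALC1, a remodeller recruited to DNA breaks by poly(ADP-ribose). It had 28.1, 34.7 and 27.7 CPM in WT and 16.6, 16.5 and 18.7 in rd10. Every rd10 library was far below the WT range, and the log2 fold change was -0.80 ± 0.14 (SE; edgeR adjusted p = 0.0089). Without WT-4 or Rd10-3 the adjusted p was 0.0517 and 0.0587, and 17 of 19 alternatives kept the call (adjusted p from 2.04e-04 to 0.0587). The predicted gene Gm43075 overlaps an exon of Chd1l on the opposite strand. Chd1 had 41.3, 50.9 and 68.3 CPM in WT and 33.7, 34 and 38.9 in rd10, and Chd2 had 83.4, 86.5 and 120, and 60.8, 57.8 and 78.9. Both were without overlap and missed the threshold (-0.59 ± 0.19 and -0.55 ± 0.18, adjusted p = 0.0753 and 0.0847). Both passed without WT-1 (0.00937 and 0.0281).

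Chd7, the gene mutated in CHARGE syndrome, had 146, 133 and 183 CPM in WT and 76.8, 109 and 89.9 in rd10. The groups did not overlap, and the log2 fold change was -0.74 ± 0.17 (SE; edgeR adjusted p = 0.025). The call ended on leaving out Rd10-3, Rd10-5 or WT-4 (adjusted p = 0.115, 0.0842 and 0.0607). Library size alone (0.068) and a fold of 1.2 (0.0608) lost it too, and it was kept in 14 of 19 alternatives (adjusted p from 0.00219 to 0.115). In its subfamily, Chd9 had -0.48 ± 0.18 (adjusted p = 0.117), Chd8 -0.11 ± 0.12 and Chd6 0.06 ± 0.11, and the groups overlapped in all 3.

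Chd3 had 264, 238 and 264 CPM in WT and 323, 325 and 333 in rd10. The rd10 libraries lay within a narrow band above every WT library. On the log2 scale the difference was 0.36 ± 0.10 (SE; edgeR adjusted p = 0.0497), just past the threshold. It did not pass when Rd10-3, Rd10-4, Rd10-5, WT-4 or WT-23 was left out (adjusted p = 0.176, 0.134, 0.149, 0.207 and 0.0521). With inner neuron scaling the value was 0.08 (adjusted p = 0.602), and 9 of 19 alternatives kept the call (adjusted p from 0.00614 to 0.602). Chd4 had 381, 386 and 410 CPM in WT and 400, 425 and 408 in rd10, with overlap (0.07 ± 0.10, adjusted p = 0.694). Chd5, the neuronal member, had 103 ± 21.3 and 118 ± 17.7 CPM (0.20 ± 0.18, adjusted p = 0.497). Chd3os, a neighbour of Chd3 on the opposite strand that is no remodeller but bears the symbol, had 47.8 ± 7.56 and 48.3 ± 5.04 CPM.

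Of the 7 bromodomain genes, 2 fell, none rose and 5 were not called, with 4 lower and none higher at an unadjusted p under 0.05 and 3 lower by DESeq2. The median was -0.272, or -0.550 with inner neuron scaling and -0.032 with library size alone. Brd3, of the BET family that binds acetylated histones at active genes, had 77, 71.1 and 79.1 CPM in WT and 47, 53.8 and 48.3 in rd10. The groups were well apart (-0.61 ± 0.11 SE, edgeR adjusted p = 0.0103). Without Rd10-3 or Rd10-5 the adjusted p was 0.072 and 0.0505 and with library size alone 0.0546, and 16 of 19 alternatives kept the call (adjusted p from 3.70e-04 to 0.072). Brd2 had 205, 201 and 197 CPM in WT and 163, 171 and 166 in rd10. Its groups lay apart, yet the difference of -0.27 ± 0.10 missed the threshold (adjusted p = 0.101), and exons of H2-DMa overlap it on the opposite strand.

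Brd1, whose protein is a scaffold of the HBO1 acetyltransferase complex, had 63.4, 58.3 and 55.5 CPM in WT and 42.6, 45.2 and 43.5 in rd10. The groups did not overlap (-0.43 ± 0.11 SE, edgeR adjusted p = 0.0381). Leaving out Rd10-3, Rd10-4, Rd10-5 or WT-4 ended the call (adjusted p = 0.168, 0.0949, 0.121 and 0.148), as it did with upper quartile factors (0.0845), and 10 of 19 alternatives kept it (adjusted p from 0.00168 to 0.268). Brd8, named after its values were seen, missed the threshold narrowly, with 93.9 ± 8.16 CPM in WT and 70.9 ± 3.26 in rd10 (log2 difference -0.41 ± 0.11, adjusted p = 0.0513, and from 0.00705 to 0.383 over the alternatives). The SWI/SNF subunit genes Brd7 and Brd9 had 0.15 ± 0.12 and -0.00 ± 0.12, and their groups overlapped.

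None of the 14 Smarc genes was called in either direction by edgeR or by DESeq2, and 2 were higher at an unadjusted p under 0.05. Their median log2 fold change was 0.021, 0.260 with library size alone, when 3 were called higher, and -0.258 with inner neuron scaling, when 2 were called lower. Together they took 0.137 ± 0.0024% of the counts in WT libraries and 0.161 ± 0.0037% in rd10 libraries, without overlap (exact permutation test, two-sided, p = 0.1; 0.28 adjusted over 25 sums). These shares are of the library total, which holds the rod transcripts. They use no TMM factor and amount to scaling by library size alone, under which the median of all tested genes was 0.203. By the same measure all 73 genes took 0.627 ± 0.023% and 0.664 ± 0.0064% (exact p = 0.1, adjusted 0.28).

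Among the SWI/SNF subunits, the ATPase gene Smarca4 had 399, 296 and 249 CPM in WT and 283, 351 and 270 in rd10. WT-1 and Rd10-4 stood highest, and the difference was -0.06 ± 0.19 (adjusted p = 0.855). The scaffold genes Smarcc1 and Smarcc2 had 0.03 ± 0.14 and 0.02 ± 0.11, and the core subunit gene Smarcb1 -0.04 ± 0.15. Smarcd3, the subunit gene linked to neural and muscle forms of the complex, had 15.6, 11.7 and 10.4 CPM in WT and 17.3, 20.7 and 14.9 in rd10. The lowest rd10 library lay within the WT range (0.49 ± 0.20, adjusted p = 0.145). Exons of Chpf2 overlap Smarcd3 on the opposite strand. Smarcd1, its relative, had 63.5 ± 13.4 and 68.3 ± 5.11 CPM.

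The ISWI ATPase genes had log2 fold changes of opposite sign. Smarca1, the form of neurons, had 22.1, 22.4 and 28.1 CPM in WT and 35.9, 27.5 and 30.5 in rd10 (log2 difference 0.37 ± 0.16, adjusted p = 0.162), and Smarca5 had 104, 137 and 163, and 111, 90.3 and 121 (-0.33 ± 0.18, adjusted p = 0.277). Neither passed the test. Smarcal1, an annealing helicase of stalled forks, had 111, 120 and 123 CPM in WT and 134, 135 and 133 in rd10, without overlap (0.18 ± 0.10, adjusted p = 0.258). The pseudogene Smarca5-ps, with 2 to 14 counts in a library, can share reads with Smarca5 and is uncertain.

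A ratio of related genes within a library does not depend on the scaling factor, so 18 pairs were compared that way. Single genes did not overlap between groups in 17.1% (higher) and 18.6% (lower) of all tested genes, and that share was not determined for other pairs. In 9 pairs the ratios of the groups did not overlap, 4 higher and 5 lower in rd10. Each of these reached an exact permutation p = 0.1 (two-sided), the smallest 3 against 3 allows, and 0.2 after adjustment over the pairs, so none passed a threshold of 0.05. The difference of Kdm5b against Kdm5a was -0.57 ± 0.13 (log2, SE). The log2 ratios of this pair were 1.80, 1.78 and 1.45 in WT, against 1.00, 1.15 and 1.19 in the rd10 libraries. Kdm3b against Kdm3a had log2 ratios of 1.84, 1.75 and 1.58 in WT, against 1.06, 1.29 and 1.25 in the rd10 libraries, a difference of -0.53 ± 0.10. In both pairs every WT ratio was above every rd10 ratio.

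The largest positive difference was that of Smarca1 against Smarca5, with -2.23, -2.61 and -2.53 in WT and -1.63, -1.71 and -1.98 in rd10 (log2 ratios; difference 0.68 ± 0.16). Kdm2b against Kdm2a differed by 0.39 ± 0.16, Smarcd3 against Smarcd1 by 0.38 ± 0.08 and Chd3 against Chd4 by 0.29 ± 0.06. Hdac5 against Hdac4 differed by -0.36 ± 0.13 and Kdm1b against Kdm1a by -0.34 ± 0.08. The ratio of Ezh1 to Ezh2 (-0.40 ± 0.23, exact p = 0.3) and that of Hdac2 to Hdac1 (-0.40 ± 0.19, exact p = 0.2) overlapped between groups. Smarca2 against Smarca4 (0.09 ± 0.32) and Kdm4b against Kdm4a (-0.06 ± 0.31) varied most between libraries of one group.

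**Figure D3:**
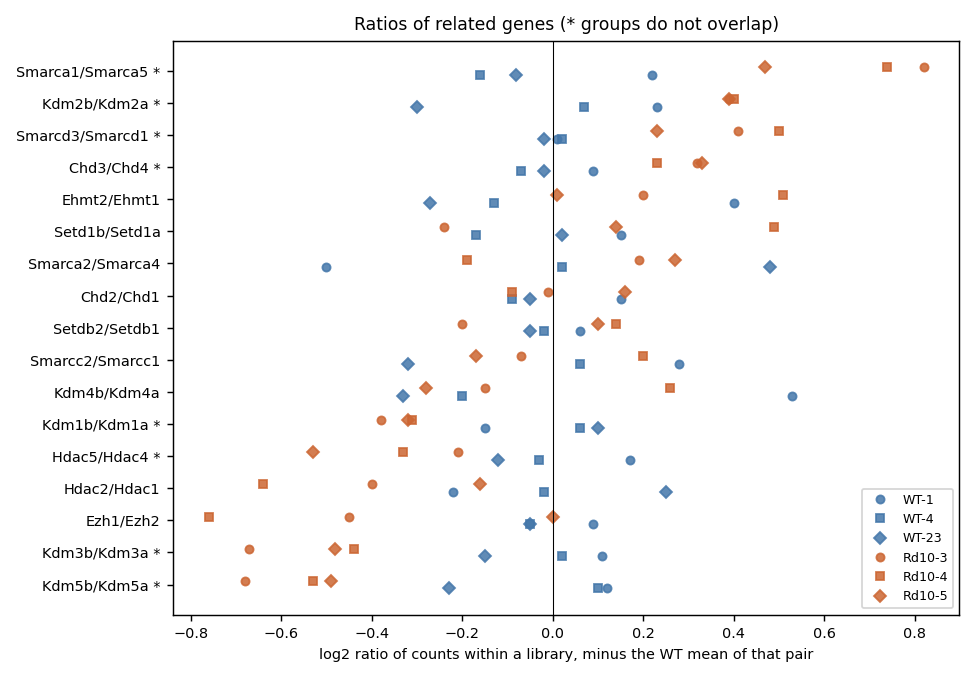
Log2 ratio of the counts of 2 related genes within each library, less the WT mean of that pair (x axis), for the pairs reported here, with a mark for each of the 6 libraries and an asterisk where the groups do not overlap. For Kdm5b/Kdm5a and Kdm3b/Kdm3a the 3 orange marks lie wholly left of the blue ones, for Smarca1/Smarca5 wholly right.

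WT-1 and Rd10-4 departed from the other libraries of their groups in a way that followed the GC content of the transcripts. For the 16 members of at least 55% GC, the median ratio of WT-1 to the mean of WT-4 and WT-23 was 1.48, and for the 13 members under 45% GC it was 0.714. The same ratios of Rd10-4 to Rd10-3 and Rd10-5 were 1.27 and 0.858. Across the 73 genes, Spearman's rho between GC content and this ratio was 0.84 for WT-1 and 0.74 for Rd10-4, as a description of points that share libraries. Hdac5 and Kdm4b (59.3% and 58.7% GC) were 2.04 and 2.01 times as high in WT-1 as in the other WT libraries, and Smarca5 (39% GC) was at 0.692. The fold changes between groups were only loosely related to GC content (rho 0.18) or exon length (rho -0.24).

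**Figure D4:**
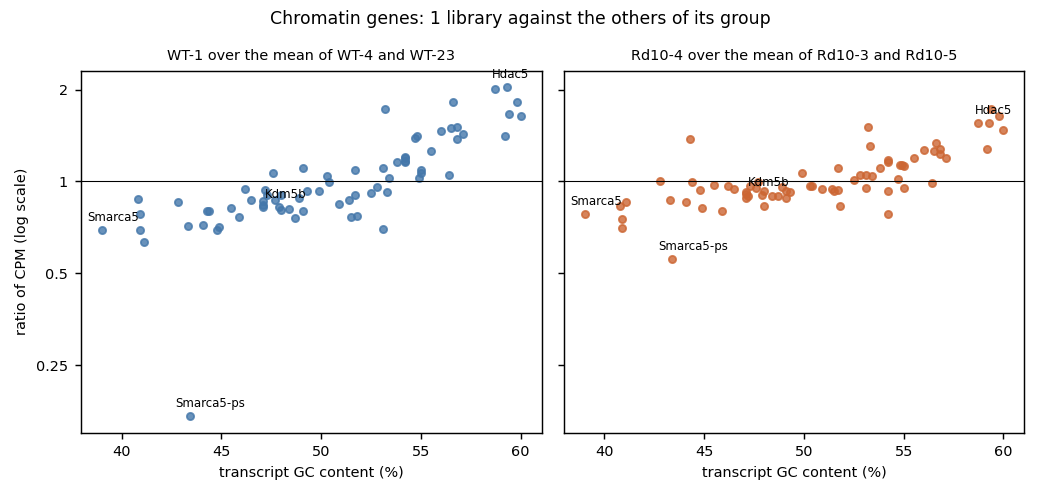
Ratio of CPM in 1 library to the mean of the other libraries of its group (y axis, log scale) against transcript GC content in percent (x axis), with a point for each of the 73 genes. In both panels the ratios climb with GC content, with medians of 0.714 (low GC) and 1.48 (high GC) for WT-1, and 0.858 and 1.27 for Rd10-4.

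With the trend on GC content removed from each library, 24 members were called, 4 higher and 20 lower, beside 16.7% and 16.5% of all tested genes. Of the 10 genes called without that step, 9 were kept and Chd3 was lost (0.29 ± 0.16, adjusted p = 0.186). The values of the 3 most stable genes changed little: Kdm4c had -0.91 ± 0.09, Kdm5b -0.74 ± 0.07 and Kdm3b -0.75 ± 0.08 (SE; edgeR adjusted p = 4.14e-05, 5.67e-05 and 8.46e-05). Among the 15 genes gained were Hdac7 (1.02 ± 0.15, adjusted p = 5.79e-04), Smarca1 (0.50 ± 0.11, 0.00766), Smarcd3 (0.42 ± 0.13, 0.025) and Setd7 (0.30 ± 0.10, 0.0462), all higher in rd10. Those gained in the lower direction included Hdac5 (-0.43 ± 0.10, adjusted p = 0.00847), Chd1 (-0.49 ± 0.11, 0.00825), Ezh1 (-0.25 ± 0.08, 0.0432) and Brd2 (-0.29 ± 0.08, 0.0155). These 8 gained genes were chosen after their values were seen. With WT-1 and Rd10-4 both left out, 13 members were called, 2 higher and 11 lower, beside 9.25% and 9.92% of all genes then tested, and 9 of the 10 genes were kept.

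Other genes, taken from lists of 127 genes, were compared in the same fit. The lists hold complex partners, other histone modifying enzymes and the sirtuins, and not every listed gene belongs to a complex of the members. Of the 126 tested, 16 fell and none rose, beside 7.32% lower and 7.12% higher of all tested genes. At an unadjusted p under 0.05, 33 were lower and 5 higher (16.0% and 14.1% of all tested genes). DESeq2 called 18 lower and 1 higher (8.59% and 8.94%). Their median log2 fold change was -0.216, against -0.037 over all tested genes. With library size alone the medians were 0.022 and 0.203. In that setting 10 were called higher and 7 lower, beside 17.8% and 4.11% of all tested genes. With inner neuron scaling the medians were -0.496 and -0.315. The 5 that were called under every alternative were Samd11, Dpf3, Suv39h2, Mta2 and Cecr2. Samd11 and Samd7, which encode sterile alpha motif proteins of a photoreceptor PRC1 complex, went from 170 ± 58.9 to 46.2 ± 12.4 CPM and from 181 ± 45.3 to 90.1 ± 16.4 CPM (SD, n = 3). The log2 fold change of Samd11 was -1.88 ± 0.28 (SE), and the adjusted p values (edgeR) were 0.00405 and 0.0149. Samd7 lost its call on leaving out Rd10-3, Rd10-4 or WT-4 (adjusted p = 0.081, 0.0531 and 0.0603, and from 1.73e-04 to 0.081 over all alternatives).

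Partners of the complexes whose ATPases and enzymes are described above also stood among the 16, though most partners were not called. By list, 2 of 16 SWI/SNF partners fell, 1 of 8 NuRD partners and 1 of 13 ISWI, INO80 and SRCAP partners. The share called lower of all tested genes was 7.32%. Dpf3, a histone-reading subunit gene of SWI/SNF, had 116, 107 and 100 CPM in WT and 34.2, 37.9 and 43.6 in rd10 (log2 difference -1.48 ± 0.13 SE, edgeR adjusted p = 5.81e-04), while no Smarc gene was called. Mta2, a NuRD subunit gene, had 146, 152 and 154 CPM in WT and 70.8, 75.5 and 75.9 in rd10 (log2 difference -1.03 ± 0.10, adjusted p = 8.03e-04). The rise of Chd3, a NuRD ATPase gene, was kept in only 9 of 19 alternatives. In Dpf3 and Mta2 the groups were far apart and their libraries close together. Suv39h2, a gene of H3K9 methylation, had 24.8, 33.4 and 42.4 CPM in WT and 14.6, 13.7 and 16.1 in rd10 (log2 difference -1.18 ± 0.20, adjusted p = 0.00735). Cecr2, a partner of the ISWI ATPases, went from 64.5 ± 5.58 to 36.5 ± 4.24 CPM (-0.82 ± 0.13, adjusted p = 0.00587).

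The H3K4 methyltransferase genes Kmt2c (-0.92 ± 0.19), Kmt2d (-0.81 ± 0.20) and Kmt2b (-0.67 ± 0.16) fell as well (SE; edgeR adjusted p = 0.0172, 0.0308 and 0.0308). None of these held without Rd10-3 (adjusted p = 0.0903, 0.134 and 0.141). Kmt2c was also lost without Rd10-4 (0.0592), Kmt2d without WT-4 (0.0684) or Rd10-5 (0.105) and Kmt2b without WT-4 (0.0704) or Rd10-5 (0.097), and their adjusted p values lay between 4.49e-05 and 0.141 over all alternatives. Of the PRC2 partners, Jarid2 fell (-0.58 ± 0.13, adjusted p = 0.0241), but not when Rd10-3, Rd10-4, Rd10-5, WT-4 or WT-23 was left out (0.125, 0.0684, 0.0642, 0.0654 and 0.0518, with a range from 0.00305 to 0.125 over all alternatives). The other genes that fell were Sap30, Sin3a, Sirt4, Phf2, Actl6a and Yaf2, with log2 fold changes between -0.98 and -0.40. Each of these 6 lost its call on leaving out any of Rd10-3, Rd10-4, Rd10-5 and WT-4 (adjusted p from 0.0508 for Phf2 to 0.185 for Yaf2). No acetyltransferase gene of 10 and no arginine methyltransferase gene of 9 was called by edgeR or DESeq2, with 3 and 2 of them at an unadjusted p under 0.05.

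**Figure D5:**
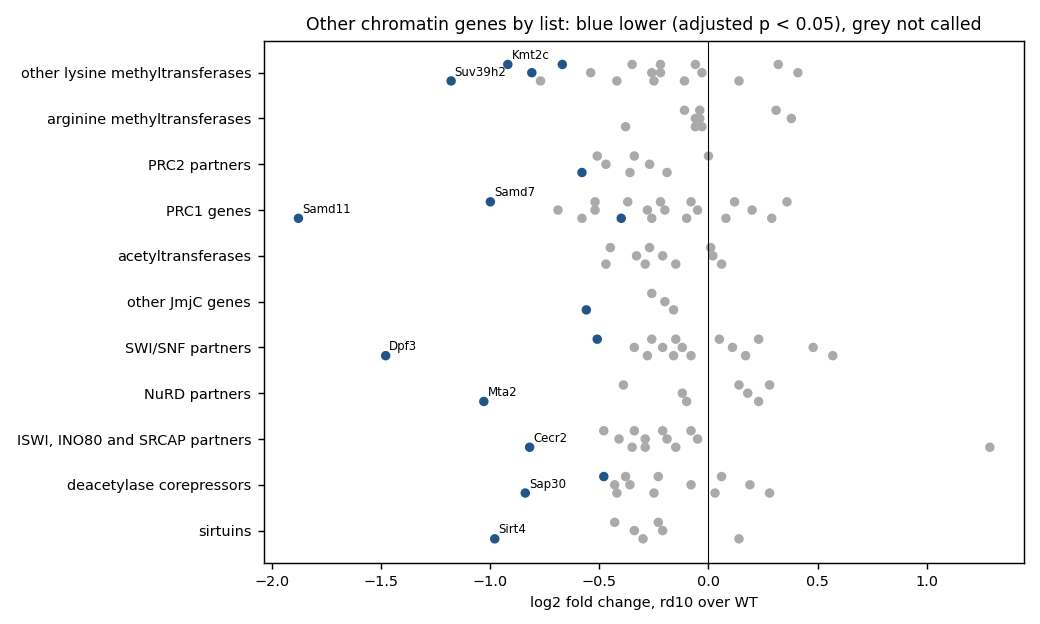
Log2 fold change of rd10 over WT (x axis) for the 126 tested genes of the companion lists, in a row per list, with called genes in blue. The 16 called genes all lie left of 0, and those farthest left are Samd11 (-1.88), Dpf3 (-1.48) and Suv39h2 (-1.18). With library size alone, 10 of the 126 were called higher and 7 lower, beside 17.8% and 4.11% of all tested genes.

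The authors' deposited table of 3427 changed genes lists 20 of the 73, 3 higher and 17 lower in rd10. For scale, 13905 genes were tested here. How the 3427 divide by direction was not determined, so the split of the 20 is not read as a result about them. The table holds 9 of the 10 called here, all but Kdm8. Its name points to cutoffs on p-value, fold and FPKM, unlike the threshold on adjusted p used here, and both come from the same series. In that table Kdm4c goes from 43.1 to 21.2 FPKM (log2 fold change -1.03), Kdm5b from 30 to 17.3 (-0.80) and Kdm3b from 40.1 to 23.3 (-0.78). The same table has Hdac7 at 1.3 and 2.9 FPKM (1.08), Smarcd3 at 4 and 5.6 (0.49) and Chd3 at 35.1 and 44.9 (0.36). The authors' deposited table gives p-values with no adjustment named, which for these members run from 2.39e-08 (Kdm3b) to 0.0481 (Setd5).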

How the data were processed

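The submitters' processing notes name TopHat2 2.1.0, HTSeq, edgeR and the build mm10 without roles. The libraries were strand-specific, per the labels' protocols; the annotation and strand setting of the counting are not stated there. The authors deposited whole-number counts per gene for 6 libraries, not normalized, and, per the file headers, a second table listing changed genes with their p-value, log2 fold change and mean FPKM in either group. Columns were assigned to groups by name, since their numbers match no replicate number of the titles.

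The count table was filtered with filterByExpr (13905 of 24062 genes kept). The quasi-likelihood test of edgeR 4.0.16 was run in R 4.3.3, robust and with TMM scaling; genotype was its sole term, and p-values were adjusted by Benjamini and Hochberg (threshold 0.05). CPM values are TMM-scaled. Errors of fold changes are standard errors of that fit. The fit was also run on simulated counts. These lacked the GC-linked departures of WT-1 and Rd10-4, so that run does not show how the fit handles them. The alternatives comprised limma voom 3.58.1, DESeq2 1.42.0, further filters and scalings, a fold of 1.2, a loess trend on transcript GC content removed from each library (span 0.5), a Y-linked term, and each library left out. Leaving out both WT-1 and Rd10-4 was added after seeing the data. Ratios of related genes, with 0.5 added to each count, and shares of counts were put to two-sided exact permutation tests in scipy 1.17.1.

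The members and lists were chosen with earlier results of these data known. Genes were named by rule: up to 4 called members per role list (the 2 of highest mean CPM in lists without a call), the 10 called members of largest fold change, both genes of each pair without overlap, and genes set by name, among them Hdac1, Hdac2, Hdac3, Ezh2, Smarca4, Kdm1a and Setd2. From the companion lists, up to 2 called genes per list were named by rule. Other genes complete a family or a count. 1 member, included in the counts, is not reported here by name, in the text or in the figures that name genes. Positions, exon overlaps, lengths and GC content came from GENCODE M21 (GRCm38), which matched all 73 members, and promoter sequences from RefSeq.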

Additional observations from a re-analysis of the deposited data

How the results depend on the processing

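The number of called members, 10, was 25 with inner neuron scaling (all lower), 24 with the GC trend removed, 5 against a fold of 1.2, and from 3 (without Rd10-3) to 18 (without WT-1) when each library was left out. Over all genes the 2008 calls became 3043 with library size alone, 4299 with inner neuron scaling, 1285 against a fold of 1.2, 4624 with the GC trend removed and 885 to 3214 with a library left out. The 16 calls among the companion genes became 57, 8 and 41 with inner neuron scaling, a fold of 1.2 and the GC trend removed, 8 with Y-linked counts as a term, 30 without both WT-1 and Rd10-4 and 5 to 30 with a library left out. The members' median of -0.107 was 0.134 with library size alone, -0.014 with upper quartile factors, -0.376 with inner neuron scaling and -0.051 with the Y-linked term. The 26 members without overlap became 40 with the GC trend removed, for which the share of all tested genes was not determined. The causes of these shifts were not tested. Summed over all 73 members and the 19 alternatives, a call was lost 46 times and gained 59 times, and no called member changed sign. The number of pairs without overlap stayed between 9 and 11. Genes of few counts such as Kdm8, Hdac7, Ezh2 and Smarca5-ps had standard errors of 0.18 to 0.60 on the log2 scale, and small differences in them were not detectable. Genes of many counts could have errors within that range, such as Kdm4c (0.18) and Hdac5 (0.31). The error of Hdac7 was 0.15 with the GC trend removed. The part of depth in these errors was not tested. No paired analysis was possible because the numbers in the column names share fewer than 2 values between the groups and match no replicate number in the titles, so no fit with a replicate block was run.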

Other observations

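DNA methylation genes, which the lists above do not hold, were looked at after the values of the chromatin genes had been seen. Of 12 such genes, 3 fell, 1 rose and 8 were not called, beside 7.32% lower and 7.12% higher of all tested genes. Tet3, whose protein oxidises methylated cytosine, had 175, 124 and 140 CPM in WT and 57, 72.8 and 67.9 in rd10, with the groups far apart. Its log2 fold change was -1.15 ± 0.16 (SE; edgeR adjusted p = 0.00305), and it was called lower under all 19 alternatives (adjusted p from 1.85e-08 to 0.0219). Its relative Tet2 had 16.4, 13.8 and 28.7 CPM in WT and 6.6, 7.67 and 9.05 in rd10. The log2 fold change was -1.34 ± 0.29 (edgeR adjusted p = 0.0189), and leaving out Rd10-3 or Rd10-4 ended the call (0.0928 and 0.057, with a range from 2.38e-04 to 0.0928). Tet1 was not called (0.28 ± 0.21, adjusted p = 0.398).

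Dnmt3a, the de novo DNA methyltransferase gene of neurons, had 285, 217 and 248 CPM in WT and 136, 147 and 158 in rd10. Its log2 fold change was -0.77 ± 0.13 (edgeR adjusted p = 0.00741). Without Rd10-3 its adjusted p was 0.0525, the highest of its 19 alternatives (the lowest was 3.05e-05). Dnmt1, the maintenance enzyme gene, had 78.5 ± 6.3 and 74.3 ± 7.47 CPM (SD, n = 3; log2 fold change -0.08 ± 0.12, adjusted p = 0.716). Uhrf1, which brings DNMT1 to replicating DNA, had 2, 5 and 4 counts in the WT libraries, against 16, 10 and 12 in rd10 (1.88 ± 0.41, adjusted p = 0.0202). On so few counts its call was lost without WT-4, WT-23, Rd10-3 or Rd10-5 in turn (adjusted p = 0.0545, 0.0528, 0.101 and 0.0508, with a range from 0.01 to 0.101).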
